A study of Mus musculus with 24 samples.

Results

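Complexes I, II, III and V of the mitochondrial respiratory chain were followed in the retina of young C57Bl/6 mice kept in room air or exposed to hyperoxia. The set holds all probe sets whose only gene symbol in the platform annotation starts with Nduf, Uqcr, Uqcc or Atp5, or is Sdha, Sdhb, Sdhc or Sdhd, which gave 129 of 22690 probe sets and 71 genes. A filter on dim probe sets, taken over all 24 arrays, kept 123 of the 129 and all 71 genes. The 6 left out were dim probe sets of Atp5a1, Ndufa12, Ndufab1, Uqcrq, Ndufb9 and Atp5g2, genes that were each measured by another probe set. Complex I had 70 tested probe sets of 38 genes, complex II 7 of 4, complex III 19 of 11 and complex V 26 of 17. The remaining probe set belonged to Ndufa4, whose protein carries a complex I name but is now assigned to complex IV. A further 8 probe sets that list several symbols were not counted as members, among them both for Ndufb4.

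Total RNA of whole retina was hybridised to 24 one-colour oligonucleotide arrays, in 8 groups of 3. The room air groups were C57Bl/6 pups at postnatal days 7, 8, 10 and 12. The hyperoxia groups were pups of the same strain and ages exposed for 12, 24, 72 and 120 hours, and age therefore cannot be separated from duration of exposure. The labels give neither the oxygen concentration nor the number of animals behind an array. Nor do they say whether the replicates were separate animals, so the p-values measure the spread between these arrays, which may be technical. In whole tissue, fewer cells of a type and less RNA per cell cannot be told apart.

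Complex I takes electrons from NADH and complex II from succinate. Complex III passes them from coenzyme Q to cytochrome c, and complex V, the ATP synthase, uses the proton gradient to make ATP. Assembly factors help to build the complexes without staying in them. The retina, and its photoreceptors above all, is among the most energy-demanding tissues, and it builds up its photoreceptor inner segments, which are packed with mitochondria, during the ages sampled here.

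The 123 probe sets had a median level of 12.75 over the 24 arrays on the log2 intensity scale. Their median standard deviation (SD) within groups was 0.148, and the 8 group means of a member spanned a median of 0.29 log2 units. Over all 15838 probe sets tested the same 2 medians were 0.215 and 0.45, a description that takes no account of brightness. Ndufa1, a small membrane subunit of complex I, had the narrowest span, 0.095, with group means between 13.96 and 14.05.

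Rod markers were bright on every array, as the label of retina requires. Their summed signal (9 measured genes of 10) was 153565 to 178240 in room air at day 7 and 233926 to 239354 at day 12. In hyperoxia it was 156015 to 177058 at day 7 and 226128 to 233573 at day 12. Cell cycle markers went the other way (8 genes), from 10160 to 13224 down to 4851 to 6325 in room air, and from 11319 to 13291 down to 4960 to 5516 in hyperoxia. Lens crystallins and other lens markers (8 genes) varied widely within a group, for example from 1099 to 159618 in room air at day 12, as did pigment epithelium markers (7 genes), from 22546 to 56492 in hyperoxia at day 12. No marker of these 4 lists was at the floor on all arrays. Pigment epithelium sums also rose with age, in hyperoxia from 10142 to 18806 at day 7 to the day 12 values above, without overlap. In room air they were 12521 to 32359 at day 7 and 28800 to 45418 at day 12, which overlapped. Of these cell types, only lens and pigment epithelium were examined in the results below, by entering their scores as covariates. Since pigment epithelium signal rose with age, such a fit cannot separate it from age. Its list also shares Rlbp1 with the list of Muller glia markers, whose sums rose with age too. In room air the Muller glia sums were 35903 to 38941 at day 7 and 48602 to 54697 at day 12.

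With age in room air, 7 genes had at least 1 probe set that rose: Uqcc3, Ndufaf5, Ndufb11, Ndufa10, Ndufv1, Ndufs8 and Atp5l. A probe set is called here where limma's moderated test over all 15838 probe sets gave a Benjamini-Hochberg adjusted p under 0.05. From day 7 to day 12 in room air, 8 of the 123 member probe sets, of 7 genes, were called higher and 0 lower, while over all probe sets 7.15% were called higher and 5.21% lower. The share of members called higher, 6.5%, was thus close to the background. The difference was positive for 92 of 123 members, with a median of 0.12 on the log2 scale, against 45.7% positive and a median of -0.03 over all probe sets. In hyperoxia over the same ages, 2 members were called higher and 1 lower, beside 5.95% and 6.64% of all probe sets, and the median was -0.01 against -0.03. The room air median of 0.12 was 0.07 without room air day 7 replicate 1, 0.02 without replicate 1 in all groups and 0.07 with lens and pigment epithelium scores as covariates. Every day 12 array lay above every day 7 array for 22 members in room air and below for 3, beside 14% and 14.3% of all probe sets. In hyperoxia the counts were 8 and 13, beside 11.7% and 14.8%.

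**Figure D1:**
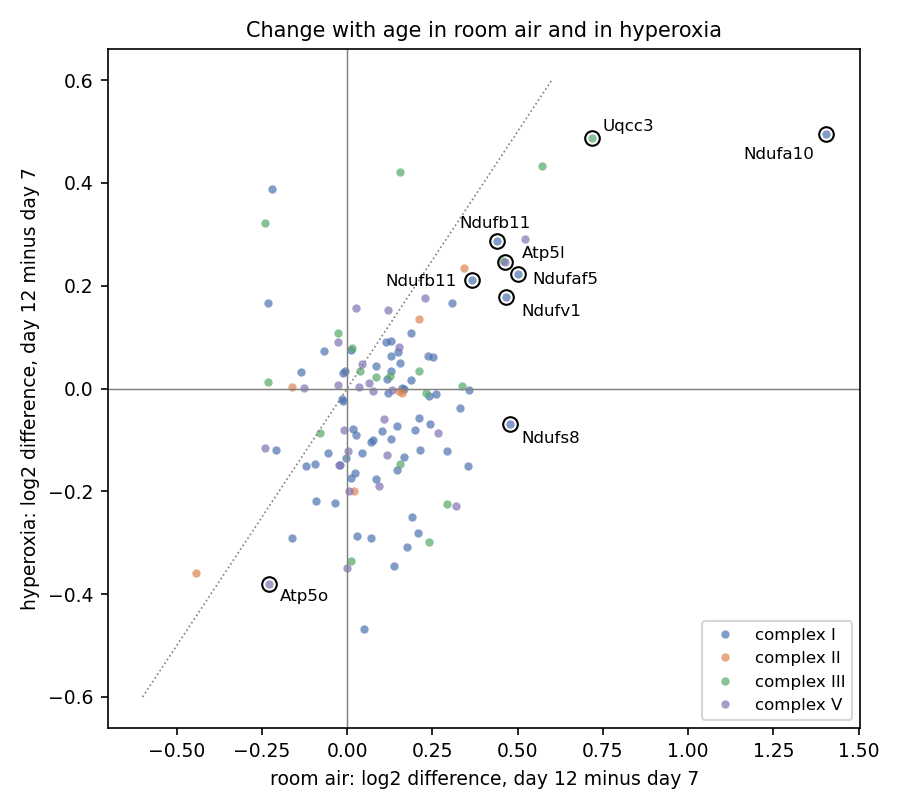
Log2 difference between day 12 and day 7 in room air (horizontal axis) and in hyperoxia (vertical axis) for the 122 probe sets of complexes I, II, III and V, 1 point each, with circles around those called in either. The dotted line marks equal change; most points lie to the right of the vertical line at 0 and below the dotted line, and Ndufa10 and Uqcc3 lie farthest to the right.

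The promoters of 5 genes that the comparisons below turn on are shown first: 4 that rose with age (Uqcc3, Ndufb11, Ndufaf5 and Atp5l) and Uqcc2, the member called between hyperoxia and room air. They are RefSeq sequences of GRCm38.p6, 250 bases before to 50 bases after the gene's start, on the gene's strand. They lie at chr19:8880884-8881183 (minus strand) for Uqcc3, chrX:20617570-20617869 (minus) for Ndufb11 and chr2:140170396-140170695 (plus) for Ndufaf5. Those of Atp5l and Uqcc2 lie at chr9:44920693-44920992 (minus) and chr17:27133842-27134141 (minus). Capitals mark matches, on either strand, to any of 4 motifs: the NRF1 core GCGCATGC, the GABP or ETS motif CCGGAAG, the YY1 motif AAGATGGC and the hypoxia response element core ACGTG.

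Uqcc3: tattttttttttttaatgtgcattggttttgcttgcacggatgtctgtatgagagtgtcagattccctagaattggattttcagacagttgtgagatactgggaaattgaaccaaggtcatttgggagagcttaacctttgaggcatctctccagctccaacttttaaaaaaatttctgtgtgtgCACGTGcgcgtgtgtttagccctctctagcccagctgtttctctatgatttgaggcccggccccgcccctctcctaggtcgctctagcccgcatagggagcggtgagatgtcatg
Ndufb11: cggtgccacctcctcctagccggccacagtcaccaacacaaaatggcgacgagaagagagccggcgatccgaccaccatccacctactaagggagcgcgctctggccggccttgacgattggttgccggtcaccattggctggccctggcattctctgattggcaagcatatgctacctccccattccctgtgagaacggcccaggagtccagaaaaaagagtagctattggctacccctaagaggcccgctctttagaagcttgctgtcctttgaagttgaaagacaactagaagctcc
Ndufaf5: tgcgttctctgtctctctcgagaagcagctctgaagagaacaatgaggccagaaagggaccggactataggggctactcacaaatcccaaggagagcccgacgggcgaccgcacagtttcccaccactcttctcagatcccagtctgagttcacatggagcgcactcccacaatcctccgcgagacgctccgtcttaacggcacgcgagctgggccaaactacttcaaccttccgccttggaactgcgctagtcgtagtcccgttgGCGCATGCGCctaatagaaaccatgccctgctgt
Atp5l: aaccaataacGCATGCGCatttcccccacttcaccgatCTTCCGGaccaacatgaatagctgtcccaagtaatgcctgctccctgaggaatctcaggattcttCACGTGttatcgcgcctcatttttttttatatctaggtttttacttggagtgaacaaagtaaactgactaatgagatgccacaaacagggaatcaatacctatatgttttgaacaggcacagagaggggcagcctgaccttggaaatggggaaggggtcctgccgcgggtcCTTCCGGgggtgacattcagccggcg
Uqcc2: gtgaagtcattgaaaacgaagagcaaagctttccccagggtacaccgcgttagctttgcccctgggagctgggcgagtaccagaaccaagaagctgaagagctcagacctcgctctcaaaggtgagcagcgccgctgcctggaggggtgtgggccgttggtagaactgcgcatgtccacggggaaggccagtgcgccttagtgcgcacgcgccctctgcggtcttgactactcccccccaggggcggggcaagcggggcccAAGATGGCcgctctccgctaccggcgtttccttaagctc

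NRF1 and GABP are transcription factors known to act at many genes of the respiratory chain. The capitals in Ndufaf5 are the NRF1 core in overlapping matches, 1 on each strand. In Atp5l they are 1 NRF1 core, 2 GABP or ETS matches and a CACGTG, which holds the hypoxia response element core on both strands. Uqcc3 has only a CACGTG, Uqcc2 only a YY1 match just after its start, and Ndufb11 none of the 4. Of the 71 member genes, 62 were matched by gene identifier. The NRF1 core stood in the promoters of 10 of these 62 genes (16.1%), against 5.01% of 9883 genes that the array measures with a promoter in the table. The YY1 motif stood in 10 of 62 (16.1%) against 4.39%, and the GABP or ETS motif in 15 of 62 (24.2%) against 16.4%. The hypoxia response element core stood in 18 of 62 (29%) against 26.9%. Over all 32851 promoter entries of the same length, the shares were 2.71% for NRF1, 2.75% for YY1, 8.86% for GABP or ETS and 19.6% for the hypoxia response element core. No motif contains another, though CCGGAAG and AAGATGGC can share their AAG, and a match describes letters only.

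Among the assembly factors, Uqcc3, which is needed for the early steps of complex III assembly and cytochrome b stability, changed with age in both atmospheres. In room air its log2 intensities were 11.01, 11.28 and 11.57 at day 7 and 11.12, 11.60 and 11.35 at day 8. They were 11.66, 11.89 and 11.80 at day 10 and 12.13, 11.92 and 11.97 at day 12. The groups at days 10 and 12 lay wholly above those at days 7 and 8. In hyperoxia the values were 11.10, 11.25 and 11.09 at day 7 and 11.13, 11.25 and 11.51 at day 8. They were 11.37, 11.43 and 11.47 at day 10 and 11.60, 11.54 and 11.76 at day 12. Every day 12 array in hyperoxia was below every day 12 array in room air, and the same held at day 10, while at days 7 and 8 the 2 atmospheres overlapped. Uqcc3 rose by 0.72 ± 0.14 (standard error, SE, n = 3 arrays per group; adjusted p = 0.00164, limma) in room air, a 1.64-fold rise, and by 0.49 ± 0.14 (adjusted p = 0.0247) in hyperoxia. The difference between hyperoxia and room air was -0.36 ± 0.14 at day 10 (adjusted p = 0.369, limma) and -0.37 ± 0.14 at day 12 (adjusted p = 0.469), so neither passed the test over all probe sets. The hyperoxia call of Uqcc3 was lost when lens and pigment epithelium scores were covariates (0.40, adjusted p = 0.268) and without any of 4 single arrays, hyperoxia day 7 replicates 1 and 3 and hyperoxia day 12 replicates 1 and 3. With the same covariates the room air rise was 0.64 (adjusted p = 0.0128).

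Ndufaf5, a complex I assembly factor that modifies an arginine of a core subunit, was 9.96, 10.26 and 10.29 in room air at day 7 and 10.69, 10.65 and 10.67 at day 12. The 2 groups did not overlap, and the rise was 0.50 ± 0.13 (adjusted p = 0.0143, limma, n = 3 arrays per group). In hyperoxia its values were 10.09, 10.37 and 10.31 at day 7 and 10.25, 10.67 and 10.53 at day 12, which overlapped. Across the 6 probe sets of the 5 complex I assembly factors, the hyperoxia minus room air difference was positive for all 6 at day 7 (median 0.11) and for 1 at day 12 (median -0.21), with limma calling 0 at either age and an unadjusted p under 0.05 for 0 and 1.

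**Figure D2:**
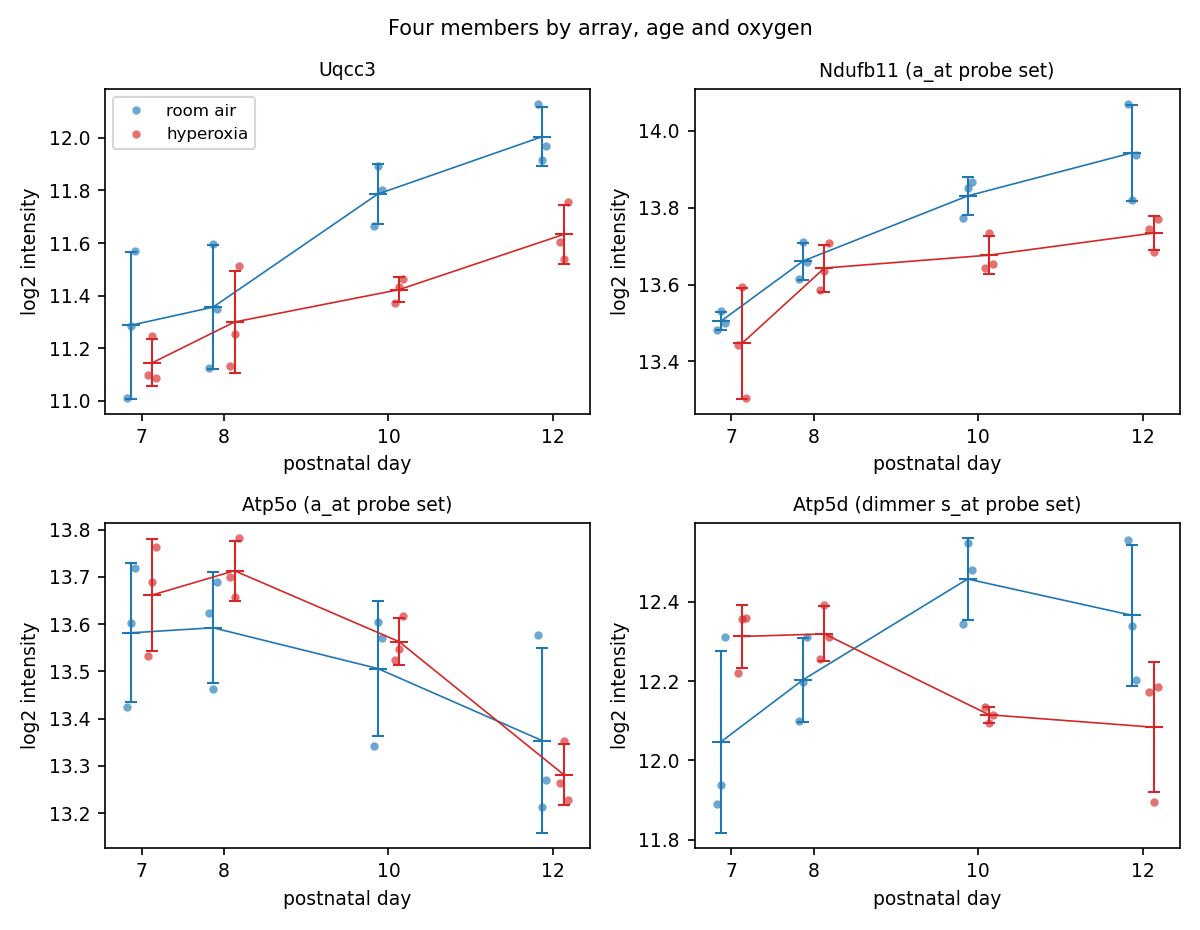
Log2 intensity (vertical axis) of Uqcc3, Ndufb11, Atp5o and Atp5d, 1 probe set each, on all 24 arrays by postnatal day, in room air (blue) and hyperoxia (red); points are arrays, and bars are the mean ± SD of 3 arrays. Uqcc3 and Ndufb11 climb in both atmospheres, and at days 10 and 12 their hyperoxia arrays lie below those of room air by differences that did not pass the test, while Atp5o falls in hyperoxia from 13.66 at day 7 to 13.28 at day 12.

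Of the complex I accessory subunits, which surround the catalytic core, Ndufb11 was called by 2 of its 3 probe sets. The a_at probe set read 13.48, 13.53 and 13.50 in room air at day 7, 13.77, 13.85 and 13.87 at day 10 and 14.07, 13.82 and 13.94 at day 12. In hyperoxia it read 13.44, 13.59 and 13.30 at day 7, 13.64, 13.73 and 13.65 at day 10 and 13.75, 13.69 and 13.77 at day 12. Each atmosphere's day 12 arrays lay above its day 7 arrays, and at days 10 and 12 every hyperoxia array lay below every room air array. Those differences did not pass the test: they were -0.15 ± 0.09 at day 10 (adjusted p = 0.528, limma) and -0.21 ± 0.09 at day 12 (adjusted p = 0.519). For the at probe set they were -0.08 and -0.06, and for the x_at probe set -0.09 and -0.14, with overlapping groups. The a_at probe set rose by 0.44 ± 0.09 in room air (adjusted p = 0.00223, limma, n = 3 arrays per group) and by 0.29 ± 0.09 in hyperoxia (adjusted p = 0.0375). The at probe set rose by 0.37 ± 0.10 in room air (adjusted p = 0.0249) and showed 0.21 ± 0.10 in hyperoxia (adjusted p = 0.212). The third, an x_at probe set (a suffix for probes that can match other transcripts), showed 0.19 ± 0.10 in room air (adjusted p = 0.24) and 0.11 ± 0.10 in hyperoxia (adjusted p = 0.547). With the 3 probe sets averaged, a setting chosen after seeing the data, Ndufb11 still passed in room air, by 0.33 (adjusted p = 0.00401). It did not in hyperoxia, by 0.20 (adjusted p = 0.0699).

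Ndufa10, another accessory subunit, had the widest span of group means of any member, 1.49, and it came from its dimmer probe set. That probe set read 7.93, 7.30 and 7.09 in room air at day 7, the last at the floor of 7.09 set for dim signals. It read 8.40, 9.01 and 8.25 at day 8 and 8.92, 8.90 and 8.72 at day 12, so the day 7 arrays stood below all later room air arrays. The rise to day 12 was 1.41 ± 0.25 (2.65-fold, adjusted p = 0.000695, limma, n = 3 arrays per group). The brighter probe set read 12.54, 12.52 and 12.76 at day 7 and 13.14, 12.77 and 12.84 at day 12, a difference of 0.31 ± 0.12 (adjusted p = 0.106). Both pointed up, but their sizes differed, and the 2 probe sets were uncorrelated within groups (r = -0.022, after each array's deviation from its group mean was taken, and 0.454 across the 24 arrays with the group differences left in). In hyperoxia the dimmer probe set showed 0.50 ± 0.25 and the brighter 0.17 ± 0.12 over the same ages, neither called (adjusted p = 0.219 and 0.427). The mean of the 2 probe sets, a setting chosen after seeing the data, passed in room air, by 0.86 (adjusted p = 0.000307, limma). It contains the called dimmer probe set, so it is no separate support for that call.

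The core subunits of complex I carry the flavin and the iron-sulphur clusters. Ndufv1, which binds NADH, rose in room air by 0.47 ± 0.11 in its a_at probe set (adjusted p = 0.00795, limma, n = 3 arrays per group), from 12.17, 12.34 and 12.36 at day 7 to 12.99, 12.62 and 12.65 at day 12. Its other 2 probe sets were not called, and the mean of the 3 differed by 0.25 (adjusted p = 0.116). Ndufs8, which holds 2 of the iron-sulphur clusters, rose in room air by 0.48 ± 0.14 in 1 of its x_at probe sets (adjusted p = 0.0333), from 12.46, 12.80 and 12.81 to 13.35, 13.05 and 13.10. It had 6 tested probe sets, and their mean differed by 0.14 (adjusted p = 0.382). An at probe set among the 6 had the opposite sign, -0.22 ± 0.19. The calls of Ndufv1 and Ndufs8 therefore rest on 1 probe set each.

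In complex V, Atp5l, a membrane subunit, rose in room air by 0.46 ± 0.14 (adjusted p = 0.0287, limma, n = 3 arrays per group), from 12.48, 13.01 and 12.58 at day 7 to 13.11, 13.15 and 13.20 at day 12. The groups did not overlap, and room air replicate 2 at day 7 stood highest of its group. In hyperoxia Atp5l went from 12.76, 13.18 and 12.78 to 13.12, 13.21 and 13.13, which overlapped. Atp5o, the stalk subunit that gives oligomycin sensitivity, was the member called lower. Its brighter probe set read 13.53, 13.69 and 13.76 in hyperoxia at day 7 and 13.26, 13.35 and 13.23 at day 12, a fall of 1.30-fold (-0.38 ± 0.11, adjusted p = 0.0292). In room air the same probe set went from 13.43, 13.60 and 13.72 to 13.58, 13.21 and 13.27, a difference of -0.23 ± 0.11 (adjusted p = 0.206). Its dimmer probe set showed -0.20 ± 0.16 in hyperoxia (adjusted p = 0.47).

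The calls with age depended on single arrays and on the tissue covariates. The room air count of 8, among 123 members, went to 4 without room air day 7 replicate 1, to 5 without room air day 12 replicate 1 and to 5 without room air day 12 replicate 3. The hyperoxia count of 3 went to 1 without hyperoxia day 7 replicate 1 and to 0 without hyperoxia day 7 replicate 3, hyperoxia day 12 replicate 1 or hyperoxia day 12 replicate 3. With lens and pigment epithelium scores as covariates, 4 members were called in room air and 0 in hyperoxia. The pigment epithelium markers, which include the Muller glia marker Rlbp1, rose with age themselves. In these fits tissue content and age therefore cannot be told apart.

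The subunits of complex II, which also works in the tricarboxylic acid cycle, had 0 probe sets called by limma in any comparison, with an unadjusted p under 0.05 for 1 at day 10, 2 in the average of the 4 days and 2 for age in room air. The group means of Sdha, the flavoprotein, spanned 0.21 for its brighter probe set and 0.53 for its dimmer one. The dimmer one read 12.07, 11.86 and 11.81 in room air at day 7 and 12.31, 12.33 and 12.13 at day 12, a difference of 0.34 ± 0.13 (adjusted p = 0.0858, limma). The brighter one differed by 0.21 ± 0.10 (adjusted p = 0.189). The mean of both, a setting chosen after seeing the data, passed, by 0.28 (adjusted p = 0.0424). Sdhb, the iron-sulphur subunit, spanned 0.26, with group means between 12.81 and 13.07. Sdhc, a membrane anchor, spanned 0.17 and 0.29. Sdhd, the other anchor, had a dim probe set that spanned 0.69 and a bright one that spanned 0.37, and the 2 gave opposite signs between hyperoxia and room air at each of the 4 ages.

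Other complex III subunits and the genes of ATP synthase subunit c were not called either. The differences from day 7 to day 12 in room air were 0.15 ± 0.19 for Uqcrh, the hinge protein, 0.29 ± 0.19 for Uqcrfs1, the Rieske protein, and -0.08 ± 0.09 for the brighter probe set of Uqcrb. In hyperoxia they were 0.42 ± 0.19, -0.22 ± 0.19 and -0.09 ± 0.09 (adjusted p = 0.169, 0.502 and 0.611, limma). The other probe set of Uqcrb showed -0.03 ± 0.10 in room air and 0.11 ± 0.10 in hyperoxia. The 3 genes for subunit c, the ring that turns with the proton flow, encode the same mature protein. Over the same ages in room air Atp5g1 showed 0.27 ± 0.12, Atp5g2 -0.02 ± 0.09 and Atp5g3 -0.03 ± 0.09, and in hyperoxia -0.09 ± 0.12, -0.15 ± 0.09 and 0.09 ± 0.09. Ndufa4 showed 0.27 ± 0.12 in room air and 0.06 ± 0.12 in hyperoxia. Uqcc1, the partner of Uqcc2 in cytochrome b synthesis, showed 0.01 ± 0.16 and 0.13 ± 0.18 in room air for its 2 probe sets.

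Between hyperoxia and room air, limma called 1 member, at day 10, and 0 at days 7, 8 and 12 and in the average over the 4 days. At day 7 the members had 80 positive and 43 negative differences (median 0.05), beside 0% of all probe sets called higher and 0.0631% lower. An unadjusted p under 0.05 was reached there by 2 higher and 0 lower members (1.75% and 1.43% of all). At day 8 they had 69 and 54 (median 0.02), beside 0% and 0.0821% of all called, with 5 higher and 1 lower on the unadjusted p (2.19% and 2.73%). At day 10 they had 39 and 84 (median -0.06), beside 0.00631% called higher and 0.0568% lower, with 2 and 7 unadjusted (4.65% and 6.26%). At day 12 they had 27 and 96 (median -0.10), beside 0% and 0.0126%, with 1 and 12 unadjusted (3.65% and 5.08%). For the average of the 4 days the background was 0.0189% higher and 0.474% lower, with 2 and 7 members unadjusted (3.85% and 5.1%), and the members' median was -0.02. The small member medians at days 7 and 8 changed sign to -0.01 without a single array, room air replicate 1 at day 7 and either room air replicate 1 or hyperoxia replicate 2 at day 8. Those at days 10 and 12 stayed negative without any single array, and were -0.04 at day 10 without replicate 2 in all groups and -0.05 at day 12 without replicate 1 in all groups. The medians over all probe sets were at most 0.01 from 0 at each age. The members' shares of negative differences from day 7 to day 12, 35.0, 43.9, 68.3 and 78.0%, stood beside 47.2, 49.0, 50.6 and 50.8% of all probe sets.

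**Figure D3:**
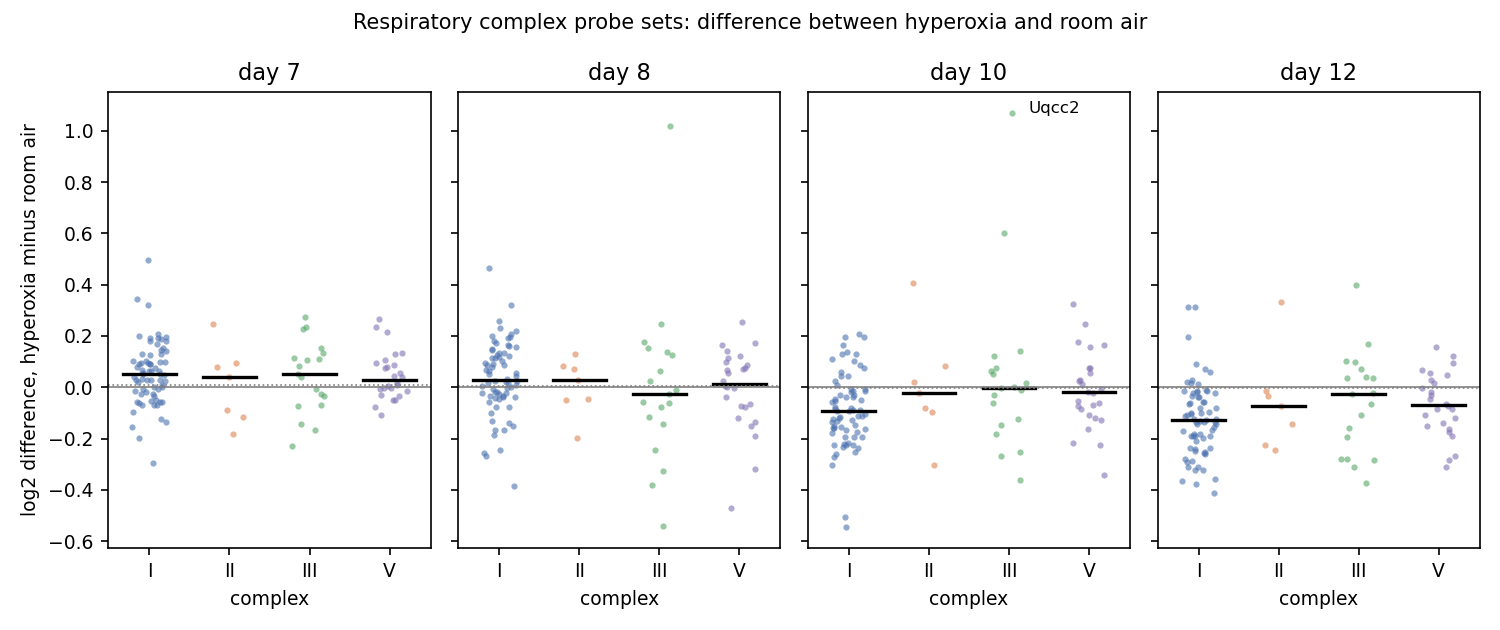
Log2 difference, hyperoxia minus room air (vertical axis), of the 122 probe sets of complexes I, II, III and V at each age, 1 point per probe set, with a black bar at the median of each complex and a dotted line at the median of all probe sets. The complex I medians are 0.05, 0.03, -0.09 and -0.13 from day 7 to day 12, and Uqcc2 is the probe set called at day 10.

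The differences at days 10 and 12 are given by complex, with no test between complexes. Complex I holds 70 of the 123 members. At day 10, 54 of 70 complex I probe sets were negative with a median of -0.09, and at day 12, 60 of 70 were negative with a median of -0.13. Complex II had 4 of 7 negative at day 10 (median -0.02) and 6 of 7 at day 12 (median -0.07). Complex V had 15 of 26 negative at day 10 (median -0.02) and 18 of 26 at day 12 (median -0.07). Complex III had 10 of 19 and 11 of 19, with medians of -0.00 and -0.03. Over all members, every hyperoxia array was below every room air array for 24 probe sets at day 10 (19.5%), beside 11.9% of all probe sets, and for 23 at day 12 (18.7%), beside 6.69%. The opposite order held for 5 at day 10 and 2 at day 12 (4.1% and 1.6%), beside 9.64% and 4.99%. At days 7 and 8 the counts were 1 and 4 below and 4 and 9 above, beside 2.91% and 5.49% below and 4.14% and 4.48% above. Members share arrays, so their differences are not independent of each other. Summed markers of some cell types were also lower on every hyperoxia array at 1 or both of these ages. Rod sums were 208930 to 215588 in hyperoxia against 222933 to 226468 in room air at day 10, and lower at day 12 by the values given above. Cone sums (5 genes) were 26269 to 28613 against 29768 to 32160 at day 10 and 31669 to 33678 against 34888 to 39136 at day 12. Endothelial sums (8 genes) were 7712 to 8460 against 10227 to 12307 and 8156 to 9766 against 10069 to 11980. Ganglion cell sums were 25015 to 25515 against 26281 to 27631 at day 10 but overlapped at day 12 (27821 to 32025 against 28306 to 29341). Red blood cell sums (3 genes) were 462 to 598 against 961 to 1365 at day 12 but overlapped at day 10 (452 to 707 against 688 to 1319). Sums of Muller glia and cell cycle markers overlapped at both ages, as did those of lens and pigment epithelium. Sums weight the brightest genes most. On the mean log2 value of the genes, rod groups overlapped at day 12 (14.48 to 14.55 in room air, 14.43 to 14.49 in hyperoxia). Ganglion cell groups overlapped at day 10 (11.89 to 12.09, and 11.92 to 12.01). Cell cycle markers were then lower on every hyperoxia array at day 12 (8.26 to 8.57 against 8.60 to 8.91). The part of these cell types in the members' differences was not tested.

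The lowest p-values among members at day 12 belonged to Ndufa3, Ndufs8 and Ndufb7. Ndufa3, an accessory subunit, read 13.59, 13.45 and 13.48 in room air and 13.27, 13.30 and 13.18 in hyperoxia (the at probe set; -0.26 ± 0.09, adjusted p = 0.442, limma). The brightest probe set of Ndufs8 read 13.48, 13.13 and 13.17 against 12.76, 13.01 and 12.88 (-0.38 ± 0.14, adjusted p = 0.449). Its probe sets did not agree: an at probe set showed -0.06 ± 0.14, and another was higher in hyperoxia. Ndufb7, an accessory subunit, read 13.12, 12.94 and 12.93 against 12.70, 12.49 and 12.88 (the brighter probe set; -0.31 ± 0.12, adjusted p = 0.464). None of the 3 probe sets with these lowest p-values had overlapping groups. The intervals bound what these arrays allow: at day 12 the 95% interval of the difference lay within 1.5-fold for 99 of 123 members, and at days 7, 8 and 10 for 107, 106 and 106.

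At days 7 and 8 the lowest p-values went with positive differences. Ndufa13, an accessory subunit also known for a role in cell death, read 13.03, 13.15 and 13.36 in room air at day 7 and 13.52, 13.50 and 13.49 in hyperoxia (0.32 ± 0.14, adjusted p = 1, limma). The highest difference at day 8 was that of a dim probe set of Uqcrq, a small complex III subunit, at 1.02 ± 0.37 (adjusted p = 0.944). Its room air arrays read 8.58, 7.09 and 7.09, the last 2 at the floor, and its hyperoxia arrays 8.53, 8.47 and 8.82. The bright probe set of Uqcrq read 12.67, 12.81 and 12.82 against 12.80, 13.08 and 12.84. At the same age 1 probe set of Ndufab1, the mitochondrial acyl carrier protein, showed 0.32 ± 0.12 (adjusted p = 0.944, limma). Its other tested probe set had the opposite sign, -0.27 ± 0.19. An x_at probe set of Ndufa7 showed 0.47 ± 0.18 (adjusted p = 0.964, limma), and the other probe sets of that gene showed 0.06 to 0.21.

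Atp5d, a subunit of the F1 part of the ATP synthase, had differences of opposite sign at day 7 and at days 10 and 12. None of them was called, and the groups overlapped at day 7. Its dimmer probe set read 11.89, 11.94 and 12.31 in room air at day 7, 12.34, 12.55 and 12.48 at day 10 and 12.56, 12.34 and 12.20 at day 12. In hyperoxia it read 12.22, 12.36 and 12.36 at day 7, 12.13, 12.10 and 12.12 at day 10 and 12.17, 11.89 and 12.18 at day 12. Hyperoxia minus room air was 0.27 ± 0.12 at day 7, -0.34 ± 0.12 at day 10 and -0.28 ± 0.12 at day 12 (adjusted p = 1, 0.319 and 0.519, limma). The change of this difference from day 7 to day 12 was -0.55 ± 0.17 (adjusted p = 0.706), the lowest p of any member for that comparison. The brighter probe set of Atp5d had group means between 13.47 and 13.66. Its hyperoxia minus room air differences were 0.13 ± 0.12 at day 7 and -0.12 ± 0.12 at day 10.

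The member called at day 10 was Uqcc2, a partner of Uqcc1 in the synthesis of cytochrome b, and its 2 probe sets pointed in opposite directions. The dimmer one, an x_at probe set, read 10.26, 9.68 and 9.24 in room air and 10.58, 10.90 and 10.92 in hyperoxia (1.07 ± 0.19, 2.10-fold, adjusted p = 0.0411, limma, n = 3 arrays per group). The room air group at day 10 was the low one: the other 7 group means of this probe set lay between 10.20 and 10.80, and its own was 9.73 ± 0.51 (SD). The brighter one read 12.52, 12.74 and 12.62 in room air and 12.23, 12.42 and 12.47 in hyperoxia, all lower (-0.25 ± 0.15). The 2 were uncorrelated within groups (r = 0.094, and -0.318 across the 24 arrays with the group differences left in), and their mean differed by 0.41 (adjusted p = 0.24). The count of 1 went to 0 without any one of 5 of the 6 day 10 arrays (hyperoxia replicates 1, 2 and 3, room air replicates 2 and 3), and held without room air replicate 1.

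**Figure D4:**
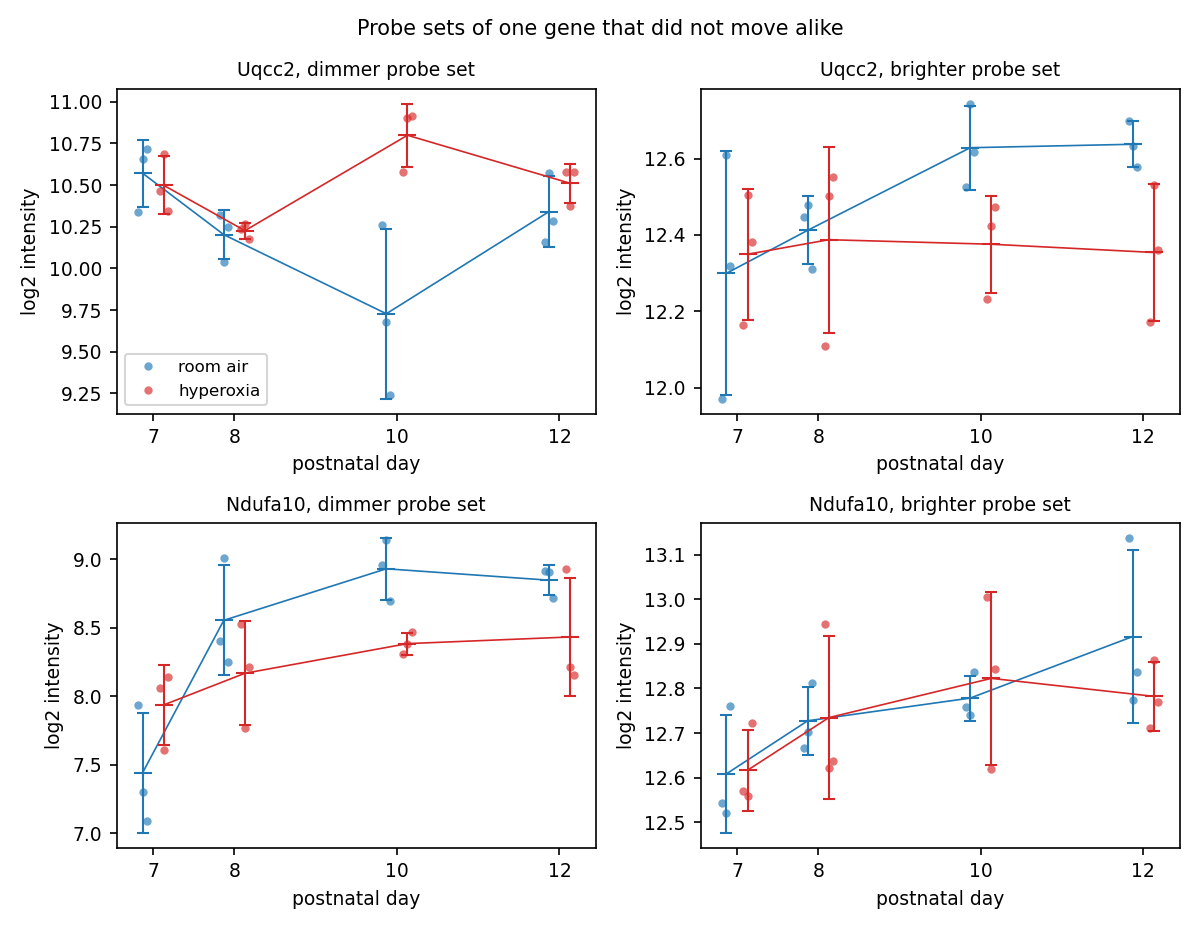
Log2 intensity (vertical axis) of both probe sets of Uqcc2 and of Ndufa10 on all 24 arrays by postnatal day, in room air (blue) and hyperoxia (red); points are arrays, and bars are the mean ± SD of 3 arrays. The dimmer Uqcc2 probe set drops to 9.73 in room air at day 10 while the brighter one is at 12.63 there, and from day 7 to day 12 in room air the dimmer Ndufa10 probe set differs by 1.41 and the brighter by 0.31.

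Disagreement between probe sets was common. Of the 37 genes with several tested probe sets, the signs differed for 22 at day 10 and 15 at day 12 between hyperoxia and room air, and for 14 between the ages in room air. In no comparison were all probe sets of such a gene called: 4 such genes (Ndufa10, Ndufb11, Ndufs8 and Ndufv1) had some called in room air, 2 (Atp5o and Ndufb11) in hyperoxia and 1 (Uqcc2) at day 10.

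Whether hyperoxia acted differently at day 12 than at day 7 was tested by the difference of the differences. For it limma called 0 of 123 members, and 0% of all probe sets in either direction. Without adjustment, 1 member was higher and 9 lower at p under 0.05, beside 2.23% and 3.98% of all. An F test of any change over the 4 ages called 0 members and 0% of all, with 8 members at an unadjusted p under 0.05 beside 6.56% of all. The difference of differences was negative for 101 of 123 members, with a median of -0.15, against 52.2% and -0.01 over all probe sets. It was negative for 62 of 70 probe sets of complex I, 14 of 19 of complex III and 19 of 26 of complex V. This comparison uses the same arrays as those at day 7 and day 12 and as the changes with age, so the 4 are not separate evidence. The median of the 123 members on an array, averaged over 3 arrays, was 12.70 ± 0.11 (SD) in room air at day 7, 12.75 ± 0.11 at day 8, 12.87 ± 0.10 at day 10 and 12.82 ± 0.11 at day 12. In hyperoxia it was 12.74 ± 0.07, 12.83 ± 0.08, 12.80 ± 0.05 and 12.70 ± 0.06. Room air replicate 1 was the lowest array of its group at day 7 (12.57) and the highest at day 12 (12.95). The median difference of differences was -0.09 without room air day 7 replicate 1, and -0.09 without replicate 1 in all groups.

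**Figure D5:**
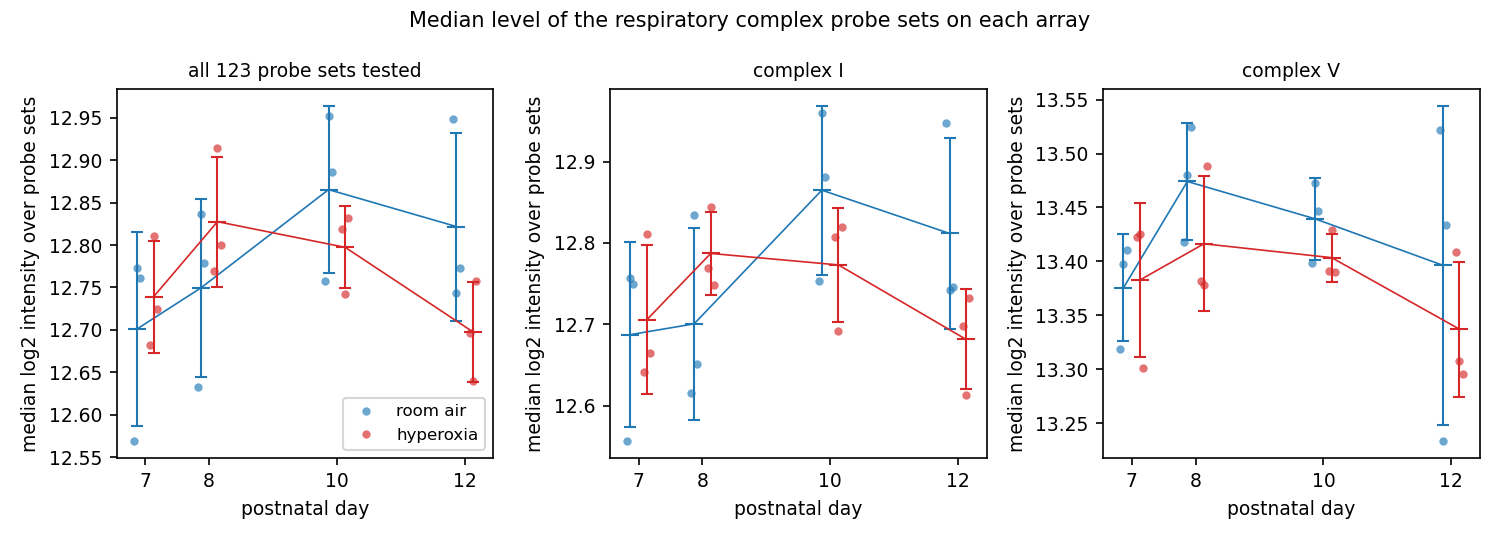
Median log2 intensity (vertical axis) over the 123 probe sets tested, over complex I and over complex V, on each of 24 arrays by postnatal day, in room air (blue) and hyperoxia (red); points are arrays, and bars are the mean ± SD of 3 arrays. For all members the hyperoxia mean is above that of room air at days 7 and 8 and below it at days 10 and 12, and the arrays of the 2 atmospheres overlap at each age.

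Genes that work with these complexes, taken from lists outside the rule, had 0 of 115 probe sets called by limma between hyperoxia and room air at any age, with 1, 5, 12 and 10 at an unadjusted p under 0.05 from day 7 to day 12. With age, 14 of the 115 were called in room air (12.2%) and 16 in hyperoxia (13.9%), close to the 12.4% and 12.6% of all probe sets. The counts below are therefore descriptions of named genes. For the difference of differences between days 7 and 12, limma called 0 of the 115. A call in only 1 atmosphere below is thus not a difference between the atmospheres. Of partners of complexes II, III and V (14 probe sets), the complex II assembly factors Sdhaf2 and Sdhaf4 rose in room air, by 0.59 ± 0.13 and 0.50 ± 0.12 (adjusted p = 0.00447 and 0.00594, limma), and 0 fell. Of 10 probe sets of other complex I assembly factors and relatives, 0 were called in room air and 1 fell in hyperoxia, Lyrm2, by -0.71 ± 0.14 (adjusted p = 0.00181). Of 22 probe sets of regulators of mitochondrial biogenesis, 2 rose and 1 fell in room air. The coactivators Ppargc1a, by 1.11 ± 0.19 (adjusted p = 0.000603), and Ppargc1b, by 0.57 ± 0.11 (adjusted p = 0.00193), rose there, and Polg, the mitochondrial DNA polymerase, fell by 0.63 on the log2 scale. In hyperoxia 3 rose and 2 fell: 2 probe sets of Ppargc1a and 1 of Ppargc1b rose, and Nrf1 (-0.66 ± 0.15, adjusted p = 0.0063) and Tfam (-0.35 ± 0.11, adjusted p = 0.0424) fell.

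Of 20 probe sets of the tricarboxylic acid cycle, 3 rose and 1 fell in room air, and 2 rose and 3 fell in hyperoxia, where 7.15% and 5.21% of all probe sets rose and fell in room air and 5.95% and 6.64% in hyperoxia. Idh3a, the catalytic subunit of the NAD-dependent isocitrate dehydrogenase, rose by 0.79 ± 0.16 in room air, while Idh2, the NADP-dependent enzyme, fell by 0.76 on the log2 scale. Of 22 probe sets of ATP, phosphate and pore carriers, 3 rose in room air and 4 in hyperoxia, with 0 lower: the mitochondrial creatine kinase Ckmt1 (0.92 ± 0.15 in room air and 0.72 ± 0.15 in hyperoxia for its probe set with the lowest p) and the ATP carrier Slc25a5. Of 14 probe sets for cytochrome c and coenzyme Q synthesis, 1 fell in each atmosphere, Coq8b, by 0.58 and 0.74 on the log2 scale. Of 13 for iron-sulphur cluster assembly, 1 rose in room air, Fdx1, by 0.44 ± 0.12, and 0 were called in hyperoxia.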

How the data were processed

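The authors deposited 1 linear intensity per probe set and array. The software behind these values is not given in the sources used here. With the top and bottom 2% trimmed, every array averaged 1500.35 to 1500.40, which shows scaling to 1 trimmed mean by the authors. Array medians, 570.2 to 679.7, still spanned 0.253 log2 units. Intensities were taken to log2 and quantile normalised, and values under the 20th percentile (a signal of 136.2) were raised to it, which understates differences of dim probe sets. The 64 control probe sets and probe sets with a mean under the 30th percentile were left out, leaving 15838 with 0.343% of values at the floor.

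Group means were fitted with limma 3.58.1 (R 4.3.3) over all 24 arrays (16 residual and 3.54 prior degrees of freedom), with Benjamini-Hochberg adjustment over all probe sets tested. Genes were named through the platform annotation, which is dated: 20380 probe sets had 1 symbol, 691 several and 1555 none. The fit was tested on simulated data with 200 changed probe sets. Figures were drawn with matplotlib 3.10.9 (Python 3.11.15). The number of arrays limits the precision.

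The members, the lists and the rule for named genes were chosen with earlier results of these data known. Named were all called members, the 3 lowest p-values of each hyperoxia comparison with fewer calls, a fixed group of subunits and assembly factors, and up to 3 genes of a list; Ndufa1 was added after its values were seen. The alternatives were other scalings, floors and filters, another variance prior, 1 probe set per gene, a replicate block, tissue scores as covariates, smaller fits and arrays left out.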

Additional observations from a re-analysis of the deposited data

How the results depend on the processing

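The counts of called members at days 7, 8 and 12, for the difference of differences and for the F test were 0 under every alternative run. No result that was called changed direction. The single call at day 10 went to 0 with 1 probe set per gene and with only the arrays compared in the fit. It also went to 0 with the probe sets of each gene averaged, a setting chosen after seeing the data. With 1 probe set per gene the brightest was kept, which left out the called Uqcc2 probe set, so that setting could not test its call. The setting likewise left out the called probe sets of Ndufa10, Ndufv1 and Ndufs8 and the a_at one of Ndufb11. The room air count of 8 with age went to 4 with 1 probe set per gene, to 4 with lens and pigment epithelium covariates and to 2 with only the arrays compared. The hyperoxia count of 3 went to 0 with those covariates, to 0 with only the arrays compared and to 1 with averaged probe sets. Fewer arrays leave fewer degrees of freedom. Leaving out arrays gave 0 to 1 for day 10 and 0 to 1 for the average of the 4 days (1 without room air day 10 replicate 1, the Uqcc2 probe set). It gave 1 to 12 for age in room air and 0 to 2 for age in hyperoxia. The 4 members called in room air without room air day 7 replicate 1 and the counts for other single arrays stand beside the result. The members' median difference of differences was between -0.19 and -0.09 over 26 settings, that at day 12 between -0.14 and -0.05 over 20, and that of age in room air between 0.02 and 0.17 over 20. Without quantile normalisation the all-probe-set medians were 0.04 for the difference of differences and -0.07 for age in room air, and the members' medians -0.18 and 0.13.

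Replicate numbers are shared between groups, but nothing in the labels says that they pair arrays. The deviations of same-numbered arrays had a mean correlation of 0.087. That for other numbers, -0.043, is no separate comparison, because deviations within a group of 3 sum to 0. With 3 numbers to choose from, 15 of 24 arrays were closest to their own number. All 3 pairs were over 0.1 for hyperoxia minus room air at day 12 (0.23 to 0.44) and for age in hyperoxia (0.15 to 0.37). With the replicate block the counts were 0 at day 12, 1 at day 10, 8 for age in room air and 4 for age in hyperoxia.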
